A study of Mus musculus with 9 samples.

Results

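Neutrophils sorted from the blood were compared with neutrophils sorted from the bone marrow of mice bearing a pancreatic tumor, leaving out the neutrophils that had entered the tumor. Of the 9 RNA sequencing libraries of the series, the 3 blood and the 3 bone marrow libraries were used. The comparison covered the 6569 genes, of 46517 listed, whose deposited log2 FPKM value was over 0 in at least 3 of these 6 libraries (FPKM, fragments per kilobase of gene length and 1000000 reads). All mice were C57BL/6 and carried an orthotopic pancreatic ductal adenocarcinoma (PDAC), that is, tumor cells of the 1242 L line, derived from a genetically engineered mouse model of that cancer, placed in the pancreas. Cells were taken 27 days after transplantation. The sort kept live CD45+ Ly6G+ Ly6C+ cells and removed cells with CD3, B220 or NK1.1. The labels call the blood cells Ly6G+ and the bone marrow cells Ly6G.hi, so the Ly6G gate cannot be told apart from the compartment. Each library was a pool of mice from a separate experiment, and no tumor-free mice entered this comparison. The question it addresses is how the mRNA of neutrophils differs between the marrow, where they are made, and the circulation into which they are released.

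Neutrophils mature in the marrow through dividing precursors into non-dividing cells with segmented nuclei. Granule proteins are made in a fixed order on the way: azurophil (primary) granule proteins first, in promyelocytes, then specific (secondary) granule proteins, then gelatinase granule and secretory vesicle proteins in nearly mature cells. CXCL12 in the marrow stroma acts on CXCR4 and holds neutrophils back, while ligands of CXCR2 and G-CSF, the ligand of Csf3r, favor their release.

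Promoter sequence is shown for 3 chosen gene groups, each of which moved largely in one direction and holds a short sequence in its promoters more often than genes at large. Other groups described below also moved largely in one direction. A window of 250 bases before to 50 bases after the RefSeq transcription start (GRCm38.p6) was available for 27025 genes. The C/EBP-type sequence (TTNNGCAA or TTNNGTAA, either strand) was in 20.8% of all genes' windows and in those of 9 of the 13 specific granule genes with a window (69.2%). The interferon-stimulated response element (ISRE; GAAANNGAAA, either strand) was in 3.99% of all and in 15 of 27 interferon-stimulated genes (55.6%). The cell cycle homology region (CHR; TTTGAA, either strand) was in 20.2% of all and in 12 of 25 cell cycle genes (48%), and the CCAAT box was in 41.1% of all and in 22 of those 25 (88%). Lists with no gene called lower in blood held both as often. The CHR was in 9 of 18 BCL2 family and caspase genes (50%). The CCAAT box was in 12 of 13 MHC class I genes (92.3%). Over all tested genes the C/EBP-type sequence was as frequent among genes higher in blood (17.9%) as among genes lower in blood (18.4%). A match of letters describes the window and is not evidence of binding. The 150 bases before the start are printed below for the most read tested members of each group that had a single RefSeq window, held the sequence within these bases and had a start close to that of the annotated transcript, 5′ to 3′ on the gene's strand, with the matched sequence in capitals. In Ltf (chr9:111019142-111019291, plus strand), Mmp8 (chr9:7558279-7558428, plus strand) and Chil3 (chr3:106167565-106167714, minus strand) the capitals mark the C/EBP-type sequence, which begins 75, 19 and 27 bases before the start. In Oas3 (chr5:120777660-120777809, minus strand) and Rsad2 (chr12:26456453-26456602, minus strand) they mark the ISRE, which begins 75 and 120 bases before the start. In Hmgb2 (chr8:57511693-57511842, plus strand) they mark the CHR, 30 bases before the start.
Ltf: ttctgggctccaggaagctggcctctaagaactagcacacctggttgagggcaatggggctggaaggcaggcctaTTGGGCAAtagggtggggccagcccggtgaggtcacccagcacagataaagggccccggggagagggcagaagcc
Mmp8: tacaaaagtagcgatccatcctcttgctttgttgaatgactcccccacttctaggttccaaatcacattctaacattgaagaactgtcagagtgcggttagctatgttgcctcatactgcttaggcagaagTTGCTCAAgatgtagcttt
Chil3: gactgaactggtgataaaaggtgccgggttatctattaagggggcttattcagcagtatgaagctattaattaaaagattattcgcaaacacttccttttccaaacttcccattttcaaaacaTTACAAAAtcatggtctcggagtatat
Oas3: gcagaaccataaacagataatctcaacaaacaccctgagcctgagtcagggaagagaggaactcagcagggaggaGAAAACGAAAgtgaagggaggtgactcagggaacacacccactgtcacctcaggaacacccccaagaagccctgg
Rsad2: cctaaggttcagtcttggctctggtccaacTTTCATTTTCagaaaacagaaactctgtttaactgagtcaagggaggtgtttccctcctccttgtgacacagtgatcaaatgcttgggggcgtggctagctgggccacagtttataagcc
Hmgb2: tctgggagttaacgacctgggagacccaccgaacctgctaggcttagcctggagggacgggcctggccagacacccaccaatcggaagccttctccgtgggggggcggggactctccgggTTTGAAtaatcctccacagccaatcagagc

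The libraries held 4580807 to 6830374 reads in blood and 7108871 to 7949367 in bone marrow, counted back from the deposited values. Pearson correlations of log2 FPKM over the tested genes were 0.914 to 0.930 within a compartment and 0.647 to 0.703 between compartments. The 10 most abundant genes took 7.85% to 8.71% of the reads in blood and 17.1% to 18% in bone marrow. Some blood libraries stood apart for single genes: among the 4397 tested genes with a mean of at least 100 reads, the SD of log2 FPKM was over 1 for 65 genes in blood and for 8 in bone marrow. Blood library 2 held epithelial reads (3, 406 and 5 reads of Krt8 and 1, 98 and 0 of Epcam in the 3 blood libraries), and blood library 3 held more reads of Rac1 (65, 77.2 and 696 RPM) and Spi1 (407, 578 and 1630). Without blood library 1, 2 or 3, the counts of changed genes stayed within 1.5 times those given below. Values per library are given as RPM (reads per 1000000 reads), scaled by the authors' library scaling.

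The sorted cells carried the defining transcripts of neutrophils in both compartments. S100a8, which encodes a calcium-binding protein of the neutrophil cytosol, stood at 2983, 3024 and 3079 RPM in blood and 7336, 5946 and 6987 in bone marrow. Csf3r, the G-CSF receptor, stood at 13350, 13028 and 11816 RPM in blood and 2699, 2836 and 2078 in bone marrow. Of the 12 neutrophil identity genes, 11 were tested, of which 8 were lower and 3 higher in blood.

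Neutrophils of blood and marrow differed in about as many genes in each direction. With limma on the deposited log2 FPKM (adjusted p under 0.05 over all 6569 genes), 1699 genes (25.9%) were higher and 1751 (26.7%) were lower in blood, 3450 in all (52.5%). The median log2 fold change (blood minus bone marrow) over all tested genes was -0.03. A difference of at least 1 on the log2 scale was reached by 917 of the higher and 1033 of the lower genes, and of at least 3 by 156 and 220. Blood and bone marrow values did not overlap for 4158 of the tested genes (63.3%).

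**Figure D1:**
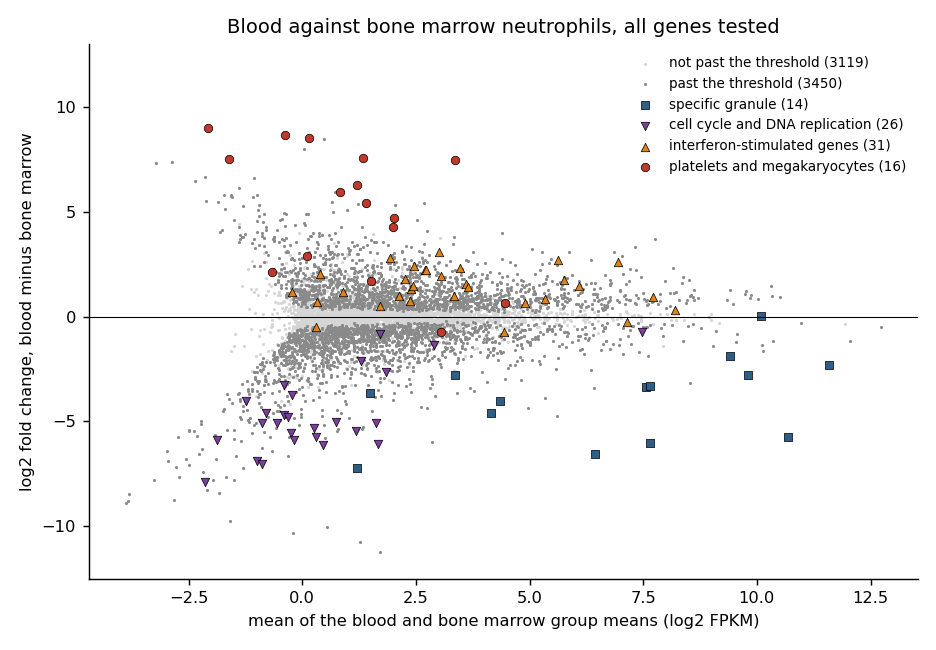
Each point is one of the 6569 tested genes, with the mean of the group means (log2 FPKM) on the x axis and the log2 fold change, blood minus bone marrow, on the y axis. Dark gray points passed the limma threshold and light gray points did not. The 14 specific granule genes (squares) and 26 cell cycle genes (downward triangles) lie below or at 0, and most of the 31 interferon-stimulated (upward triangles) and 16 platelet genes (circles) lie above it.

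Specific granule transcripts were abundant in marrow neutrophils and held a much smaller share of the reads in blood neutrophils. Summed over the list of 15 genes, they made up 19637 to 20965 RPM in blood and 160359 to 183724 in bone marrow. Of the 14 tested members, 13 were lower in blood and none was higher, with a median log2 fold change of -3.49. As the cells are bulk samples, fewer cells carrying a transcript and less of it per cell cannot be told apart, here and in what follows.

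Ltf (ENSMUSG00000032496.6, chr9:111019271-111042767), which encodes the iron-binding protein lactoferrin, stood at 720.3, 487 and 559.6 RPM in blood and 36402, 41215 and 36338 in bone marrow. It fell by 6.03 on the log2 scale (SE 0.16, adjusted p = 5.62e-05), a 65.2-fold difference. Camp (ENSMUSG00000038357.10, chr9:109847379-109849617), the precursor of the antimicrobial peptide cathelicidin, stood at 24, 17.7 and 18.8 RPM in blood and 1890, 1907 and 1923 in bone marrow. It fell by 6.57 on the log2 scale (SE 0.13, adjusted p = 4.3e-05). The groups lay far apart for both genes, with no library between them. Ngp, which encodes neutrophilic granule protein, stood at 813, 650 and 774 RPM in blood and 36929, 43160 and 37224 in bone marrow and fell by 5.72. Fcnb, which encodes the lectin ficolin B, had the largest decrease on the list, -7.22 (SE 0.59, adjusted p = 0.000437).

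The decrease was graded within the list. Cd177, a surface protein stored in these granules, fell by 3.35, Lcn2, which encodes the siderophore-binding lipocalin 2, fell by 2.80 and Chil3, a chitinase-like protein, fell by 3.31. Chil3 varied in blood, at 623, 1553 and 2148 RPM. The fall was smaller for Lyz2, the lysozyme of myeloid cells (-2.33), and for Mmp8, neutrophil collagenase (-1.90, 2770 to 4219 RPM in blood against 12126 to 14243 in bone marrow). Hp, which encodes haptoglobin, was the one tested member that did not pass, at 4219, 4935 and 4275 RPM in blood and 4418, 4700 and 4084 in bone marrow (log2 fold change 0.02, SE 0.10), and its groups overlapped.

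The proteases and myeloperoxidase of azurophil granules were much lower in blood neutrophils, but not every azurophil gene was. Elane, neutrophil elastase, had 0, 9 and 0 reads in the 3 blood libraries and 2306, 1479 and 2089 in the marrow libraries (log2 fold change -11.21, SE 1.55, adjusted p = 0.00245). Mpo, myeloperoxidase, had 0, 29 and 6 reads in blood and 7748, 4928 and 8508 in marrow (-10.76, SE 1.81, adjusted p = 0.00483). Ctsg, cathepsin G, had 1 read in all of blood and 1645 in marrow, a ratio of 1232 with a 95% exact counting interval of 220.9 to 48708. In blood the Elane and Mpo reads came from libraries 2 and 3, and library 1 had none. The sizes of these fold changes depend on the constant that the deposited values hold for libraries without a read. Prtn3 (proteinase 3, -4.82) and Ms4a3 (-8.43), a marker of granulocyte and monocyte progenitors, were also lower.

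Of the 9 tested azurophil genes, 6 were lower, and the median log2 fold change was -4.82. Prss57, a serine protease, fell by 1.19. Ctsc, which activates the granule proteases (-0.64, 106 to 142 RPM in blood against 143 to 244 in bone marrow, adjusted p = 0.0604), and Nkg7 (-1.22, adjusted p = 0.0569) did not pass. The member that rose was Srgn, which encodes serglycin, the proteoglycan core that packs granule proteins. It stood at 3166, 2492 and 2678 RPM in blood and 774, 776 and 605 in bone marrow and was 3.87-fold higher in blood (adjusted p = 0.000313). Srgn is also made by platelets and other blood cells. With Srgn, which held most of the blood reads, the summed reads of the list lay close together (2640 to 3335 RPM in blood and 2291 to 2771 in bone marrow).

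Genes of gelatinase granules and secretory vesicles, the last to be made, differed much less. Of 10 tested, 7 were lower and 1 was higher in blood, and the median log2 fold change was -0.40. Mmp9, which encodes gelatinase B, stood at 8241, 8959 and 8333 RPM in blood and 15249, 16470 and 14416 in bone marrow and fell by 0.85 (SE 0.08, adjusted p = 0.000651). It was among the 10 most abundant genes of both compartments. Retnlg, a resistin-like secreted protein, fell by 1.62, Mmp25, a membrane-bound metalloproteinase, by 1.32 and Fpr2, a formyl peptide receptor, by 1.09. Itgam, the CD11b integrin chain, fell by 0.32 (adjusted p = 0.0452), a call that was lost without any one of the 6 libraries (adjusted p = 0.057 to 0.115). Slc11a1, a metal transporter of phagosomes, was the member that rose (1.71, adjusted p = 7.98e-05). Adam8 and Qsox1 did not pass, at -0.07 and -0.11.

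**Figure D2:**
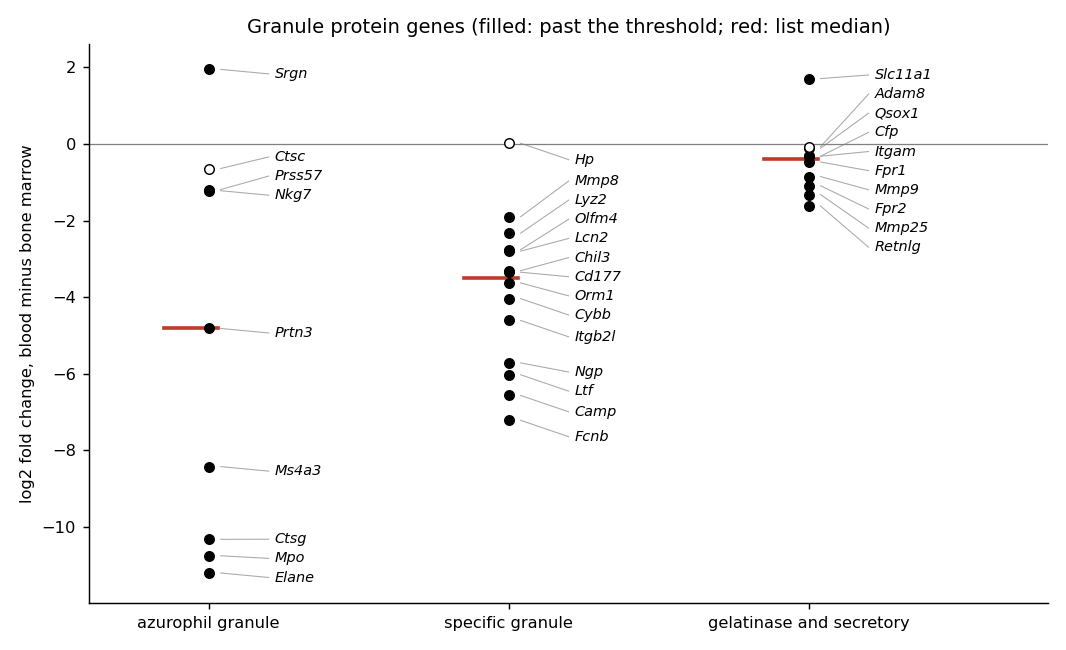
Each point is a tested granule protein gene, grouped on the x axis by granule type, with its log2 fold change, blood minus bone marrow, on the y axis. Filled points passed the limma threshold, open points did not, and red bars mark the list medians of -4.82, -3.49 and -0.40. Srgn and Slc11a1 are the filled points above 0.

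Transcripts of the NADPH oxidase, which makes superoxide in phagosomes, were lower in blood or did not pass. Of 9 tested genes, 5 were lower and none was higher (median log2 fold change -0.71). Cybb, the catalytic membrane subunit, stood at 333, 217 and 253 RPM in blood and 4177, 4622 and 4232 in bone marrow and fell by 4.04 (SE 0.17, adjusted p = 9.44e-05). Its membrane partner Cyba fell by 0.71 and the cytosolic subunit Ncf1 by 1.78. Hvcn1, the proton channel that balances the charge carried by the oxidase, fell by 3.63. Rac1 did not pass (-1.89, adjusted p = 0.14), and its blood libraries ran from 65 to 695.9 RPM, so no direction can be read from it. Rac2, the main Rac GTPase of neutrophils and the list's most abundant member, was at -0.18 (adjusted p = 0.143).

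The genes encoding the sorted surface markers were themselves lower in blood. Ly6g stood at 147, 117 and 133 RPM in blood and 713, 926 and 682 in bone marrow and fell by 2.54 (SE 0.15, adjusted p = 0.000178). Ly6c2, which encodes Ly6C, fell by 3.40. S100a8 fell by 1.15 and S100a9, its partner in calprotectin, by 1.35 (adjusted p = 0.00101). Under quantile normalization the S100a8 difference changed sign (0.19, adjusted p = 0.224), so its direction depends on the scaling.

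**Figure D3:**
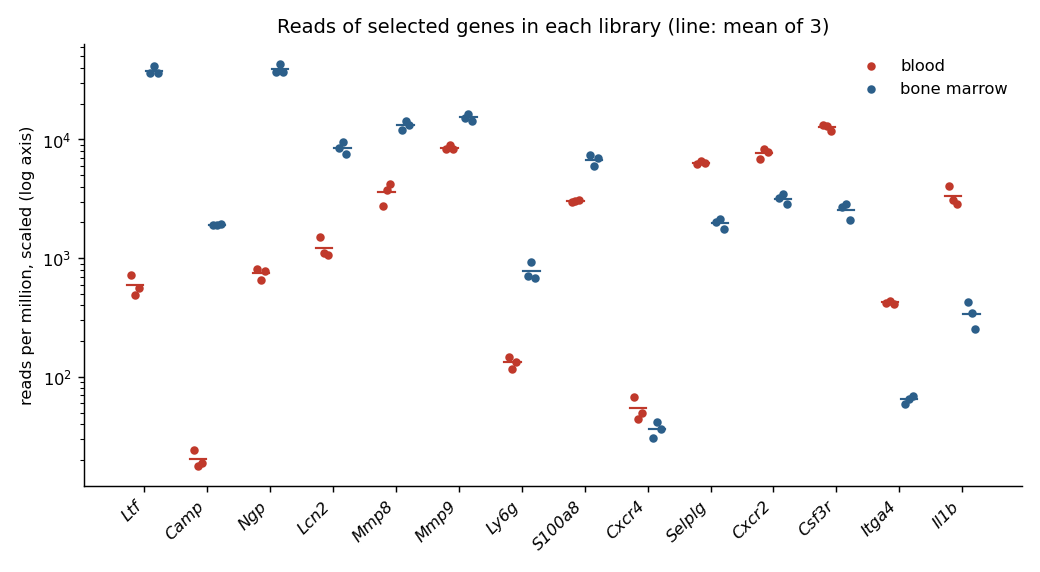
Points are the scaled RPM (log axis) of 14 genes in the 3 blood (red) and 3 bone marrow (blue) libraries, with a line at each mean. The groups do not overlap for any of the 14 genes, and the distance is largest for Ltf, Camp and Ngp. Cxcr4 is plotted although its difference did not pass the limma threshold.

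Cxcr2 and Csf3r, receptors that favor release, were higher in blood neutrophils, and Cxcr4 did not pass. Cxcr2 (ENSMUSG00000026180.8, chr1:74153989-74161246), the receptor for CXCL1, CXCL2 and related chemokines, stood at 6852, 8328 and 7887 RPM in blood and 3204, 3461 and 2860 in bone marrow. It was 2.42-fold higher (log2 fold change 1.28, SE 0.11, adjusted p = 0.000545). Csf3r was 5.05-fold higher (SE 0.14 around a log2 fold change of 2.34) and was the second most abundant gene in blood, at 1.07% of reads. Cxcr4, the retention receptor, was rare in both compartments, at 68.3, 44.6 and 50.1 RPM in blood and 30.8, 42.1 and 36.6 in bone marrow. Its log2 fold change was 0.56 (SE 0.20, adjusted p = 0.0596), and it did not pass, although its groups did not overlap. It was called by limma-voom on the recovered reads (0.55, adjusted p = 0.0263). Limma also called it with a filter of log2 FPKM over 2 (adjusted p = 0.0413) and under median centring (adjusted p = 0.047). Without blood library 2 it was called at the threshold (0.69, adjusted p = 0.05 after rounding).

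Among adhesion molecules of the marrow, Itga4, the VLA-4 integrin chain that binds VCAM-1, stood at 423, 436 and 412 RPM in blood and 59.7, 64.7 and 69.6 in bone marrow and rose by 2.71 (SE 0.11, adjusted p = 9.44e-05). Its partner chain Itgb1 was at 0.18 and did not pass. Vcam1 itself, which stromal cells and macrophages of the marrow express, had 0, 1 and 0 reads in blood and 157, 161 and 248 in marrow. On the list of 13 retention and release genes, 4 of 11 tested were higher and 5 lower. The median of 0.18 turned to -0.34 with all genes of at least 5 reads included, and it was also below 0 without blood library 3, so the list had no direction of its own.

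Of 15 tested adhesion genes, 8 were higher and 4 lower in blood (median 1.02). Selplg, the ligand of P-selectin, stood at 6194, 6643 and 6318 RPM in blood and 2027, 2135 and 1756 in bone marrow and rose by 1.70 (adjusted p = 0.000151). The integrin chains Itgax (CD11c) and Itgal (CD11a) rose 7.99-fold and 2.86-fold, and Icam1, an integrin ligand, 4.38-fold. The shared beta chain Itgb2 did not pass (-0.21, adjusted p = 0.102). Esam, an adhesion molecule that platelets and endothelium carry, had 62, 88 and 51 reads in blood and 3 in all of marrow, and was not called without blood library 1 (adjusted p = 0.0758).

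Of 11 tested chemoattractant receptors, 6 were higher and 3 were lower in blood (median 0.60). Higher were Cxcr1, a second receptor for CXC chemokines (2.13), C5ar2 (1.49) and C5ar1 (0.60), the receptors of the complement fragment C5a, and Ptafr, the receptor of platelet-activating factor (1.42). Lower were Ltb4r1, the receptor of leukotriene B4 (-1.67, adjusted p = 0.000562), and the formyl peptide receptors Fpr2 and Fpr1 (-0.47). Lta4h, the enzyme that makes leukotriene B4 and a gene chosen after its values were seen, fell by 3.63 (81.3 to 103 RPM in blood against 1079 to 1228 in bone marrow).

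Cytokine receptors were higher in blood almost throughout. Of 18 tested, 16 were higher and none was lower, against 25.9% higher among all genes, and the median was 1.24. Il1rap, the shared accessory chain of the IL-1 and IL-33 receptors, stood at 1011, 1227 and 1350 RPM in blood and 109, 122 and 123 in bone marrow and rose by 3.33 (SE 0.15, adjusted p = 0.000105). Il1r2, the decoy receptor of IL-1, rose 2.83-fold. Il13ra1 rose by 2.65 and Tnfrsf1b, a receptor of TNF, by 2.10. The members that did not pass were Csf2ra (-0.08) and Ifnar2 (-0.24).

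Pattern recognition receptors showed the same tilt, with 15 of 19 tested higher and 2 lower (median 1.26). Clec4n (dectin-2) rose by 3.07 and Clec7a (dectin-1), the fungal glucan receptor, by 2.47. Cd14, which hands lipopolysaccharide to TLR4, stood at 489.5, 718 and 578 RPM in blood and 68.6, 90.5 and 80.9 in bone marrow and rose by 2.89 (SE 0.17, adjusted p = 0.000186). Tlr1 rose by 2.57 and Tlr13, the most abundant Toll-like receptor on the list, by 1.32. Clec5a (-0.84) and Tlr5, the flagellin receptor (-0.52), were the members that fell.

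Transcripts of dividing cells were lower in blood, by factors that varied widely within the list. All 26 tested genes of the cell cycle list were lower in blood, with a median log2 fold change of -5.07. Their summed reads were 678 to 779.5 RPM in blood and 2792 to 3289 in bone marrow, and Hmgb2, a chromatin protein that non-dividing cells also express, accounted for most of the blood value (539.8 to 636 RPM in blood against 943 to 984 in bone marrow). Top2a, the DNA topoisomerase of dividing cells, stood at 2.28, 5.01 and 3.84 RPM in blood and 202, 199 and 229 in bone marrow. Cdk1, the mitotic kinase, fell by 7.90 (adjusted p = 0.00358), Plk1 by 7.03, Ccnb1, which encodes cyclin B1, by 6.12 and Birc5, which encodes survivin, by 6.87. The falls were smaller for Mki67, the proliferation marker Ki-67 (-2.11, 25.8 to 36.7 RPM in blood against 116 to 158 in bone marrow), for Pcna, the sliding clamp of DNA replication (-1.37), and for Mcm4, a replication helicase subunit (-0.84, 29.6 to 35.4 RPM in blood against 55 to 63.9 in bone marrow). Cenpe and Bub1, kinetochore genes that did not pass the log2 FPKM filter, had 3 reads each in all of blood and 709 and 511 in marrow.

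Of 10 tested granulopoiesis transcription factors, 5 were lower and 2 higher. Cebpe, the factor required for specific granules, stood at 0.506, 1.25 and 6.4 RPM in blood and 121, 104 and 88.5 in bone marrow and fell by 5.97 (SE 0.89, adjusted p = 0.00314). Cebpb fell by 3.96, on 4, 4 and 21 reads in blood, and was not called when the tumor libraries shared the fit (adjusted p = 0.124). Klf5 fell by 2.36 and Irf8, a factor of monocyte and dendritic cell development, by 1.61. Spi1, which encodes PU.1, did not pass (-0.46, adjusted p = 0.484), but without blood library 3, which held the most Spi1 reads of the 6 libraries, it was lower by the test (-1.05, adjusted p = 0.0106). The same held for Cebpd (-0.34, and -0.71, adjusted p = 0.0483, without that library).

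Interferon-stimulated genes were higher in blood neutrophils. Of 31 tested, 26 were higher and 1 was lower, and the median log2 fold change was 1.41. Gbp2, a guanylate-binding protein of host defense, stood at 445, 388 and 401 RPM in blood and 53.7, 48.4 and 42.2 in bone marrow and rose by 3.10 (SE 0.12, adjusted p = 8.06e-05). Oasl2, of the oligoadenylate synthetase family, stood at 1910, 2066 and 1818 RPM in blood and 285, 364 and 260.5 in bone marrow and rose by 2.68. Slfn5 rose by 2.78 and Ifitm1, which restricts virus entry, by 2.62. The effects were smaller for the signaling genes Stat2 (0.96) and Irf9 (0.84), and larger for Irf7 (1.48). Rsad2 (viperin) and Oas3, whose promoters are printed above, rose by 1.41 and 0.63. Cmpk2, the gene next to Rsad2, moved the other way (-0.73, adjusted p = 0.0049). Slfn4, the most abundant member, was at 0.30 and did not pass, although Slfn1 rose by 0.92.

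Genes of MHC class I and its peptide loading followed, with 10 of 13 tested higher and none lower (median 0.74). H2-D1, a classical class I heavy chain, stood at 8743, 10720 and 9332 RPM in blood and 5141, 5404 and 4433 in bone marrow and rose by 0.94 (adjusted p = 0.00172). Tap1, the peptide transporter, rose by 0.94. B2m, the light chain, rose by 0.74 (adjusted p = 0.031), a call that was lost under quantile normalization (0.47, adjusted p = 0.0836) and without blood library 2 or any of the marrow libraries. H2-Q6 and H2-Q7 rose by 1.14 and 1.14, the latter not without any 1 of 4 single libraries (adjusted p = 0.0574 to 0.0651), and these genes are near-identical copies whose reads cannot be separated with certainty.

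The genes higher in blood included some that promote and some that prevent cell death. Of 14 tested genes of the BCL2 family and caspases, 8 were higher and none was lower (median 0.90). The BH3-only death genes Pmaip1 (Noxa), Bcl2l11 (Bim) and Bmf rose by 2.67, 2.47 and 1.79. Pmaip1 stood at 224, 191 and 244 RPM in blood and 33.3, 42.1 and 28.9 in bone marrow. Of the anti-apoptotic genes, Bcl2l1 (Bcl-xL) rose by 1.31, Bcl2a1a (A1) by 2.18 and Mcl1, on which neutrophil survival depends, by 1.00 (adjusted p = 0.0169), a call lost without bone marrow library 2 or 3 (adjusted p = 0.0512 and 0.0551). Reads of Bcl2a1a cannot be separated with certainty from those of its near-identical copies. The other 6 tested members did not pass, among them the death genes Bax (-0.53) and Bad (-0.43). The caspase Casp9 was at -0.03, with overlapping groups.

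Immediate early genes and NF-kB feedback genes that passed were mostly higher in blood. Of 21 tested, 10 were higher, 2 were lower and 9 did not pass, beside 25.9% higher and 26.7% lower among all tested genes. Dusp1, a phosphatase that shuts off MAP kinases, stood at 5977, 6428 and 5997 RPM in blood and 2409, 2385 and 2012 in bone marrow and rose by 1.44 (adjusted p = 0.000249). Atf3 rose by 4.15, Nr4a1 by 2.15, Ier3 by 1.90, Btg1 by 1.55 and Junb by 1.23. Fos and Egr1, fast-responding transcription factor genes, were lower, at -0.54 (adjusted p = 0.0124) and -1.31 (adjusted p = 0.0235).

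Cytokine genes went both ways, with 7 of 15 tested higher and 4 lower. The share of lower genes was near that among all tested genes (26.7%, beside 25.9% higher). Il1b stood at 4036, 3088 and 2882 RPM in blood and 426, 346 and 251 in bone marrow and was 9.9-fold higher in blood (log2 fold change 3.31, SE 0.23, adjusted p = 0.000279). Csf1, the macrophage growth factor, rose by 3.05, Tnfsf14 (LIGHT) by 1.89 and the chemokine Ccl6 by 1.59. Lower in blood were Osm (-1.59), Cxcl2, a ligand of CXCR2 (-1.51), Tnf (-0.99) and Tnfsf13b (BAFF, -0.79).

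Clock genes were mostly below the filter: 5 of 18 were tested and 3 were higher. These were Per2 (2.11, 109 to 204 RPM in blood against 30.1 to 44.9 in bone marrow), Bhlhe40 (1.22) and Per1 (0.99). Nfil3 was at -0.04 and did not pass. The time of day of the collections is not given in the sources used here.

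Glycolysis, oxidative phosphorylation and ribosomal protein genes that passed were mostly lower in blood, beside 26.7% lower among all tested genes, and most ribosomal protein genes did not pass. Of 16 tested glycolysis genes, 10 were lower and 2 higher (median -0.55). Gapdh fell by 0.70, Pgam1 by 1.33, Pgk1 by 1.08 and Hk2, a hexokinase, by 1.08. Pkm, the most abundant of them, was at -0.20 and did not pass. The 2 members that rose were Pfkp, a phosphofructokinase (0.66, adjusted p = 0.00759), and Slc2a1, the glucose transporter GLUT1, which stood at 432, 458 and 451 RPM in blood and 134, 115 and 94.4 in bone marrow and rose by 1.98 (adjusted p = 0.000296).

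Of 54 tested oxidative phosphorylation genes, 28 were lower and 2 higher (median -0.59). The complex I subunits Ndufv3 and Ndufa9 fell by 2.12 and 1.95, Atp5b of the ATP synthase fell by 0.52, and Sdha of complex II rose by 0.45. Of 70 tested ribosomal protein genes, 23 were lower, 4 were higher and 43 did not pass (median -0.59). The largest falls among those that passed were of Rpsa (-1.74) and Rps2 (-1.58), and Rpl4 and Rplp0, the members with the most reads, fell by 1.11 and 0.54. Most ribosomal protein genes have processed copies elsewhere in the genome that can share their reads.

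Genes of protein folding and secretion in the endoplasmic reticulum (ER) were lower for 13 of 22 tested and higher for 2 (median -0.99). Sdf2l1 and Hyou1, ER chaperone genes, fell by 3.10 and 1.62, and Ssr2, of the translocon-associated complex, by 1.45. Hspa5 (BiP), one of the pair of members with the most reads, was at 0.08 with overlapping groups. Xbp1, the transcription factor of the unfolded protein response, went the other way, at 739, 1320 and 1194 RPM in blood and 317, 322 and 289.6 in bone marrow (1.77, adjusted p = 0.0019).

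Actin and motility genes showed no common direction (5 higher and 9 lower of 26, median -0.22). Capg, an actin filament capper, stood at 119, 116 and 109 RPM in blood and 758, 749 and 670 in bone marrow and fell by 2.66 (adjusted p = 6.6e-05). Ezr, which links membrane to actin, rose by 1.37, and Lsp1 and Wipf1 rose by 0.95 and 0.95. Actb and Actg1 passed narrowly as lower (-0.49 and -0.29, adjusted p = 0.0481 and 0.0393), but their sign turned under quantile normalization (0.62 and 0.20), and each call was lost without 1 of 5 single libraries (adjusted p = 0.0556 to 0.146 for Actb and 0.0732 to 0.11 for Actg1).

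**Figure D4:**
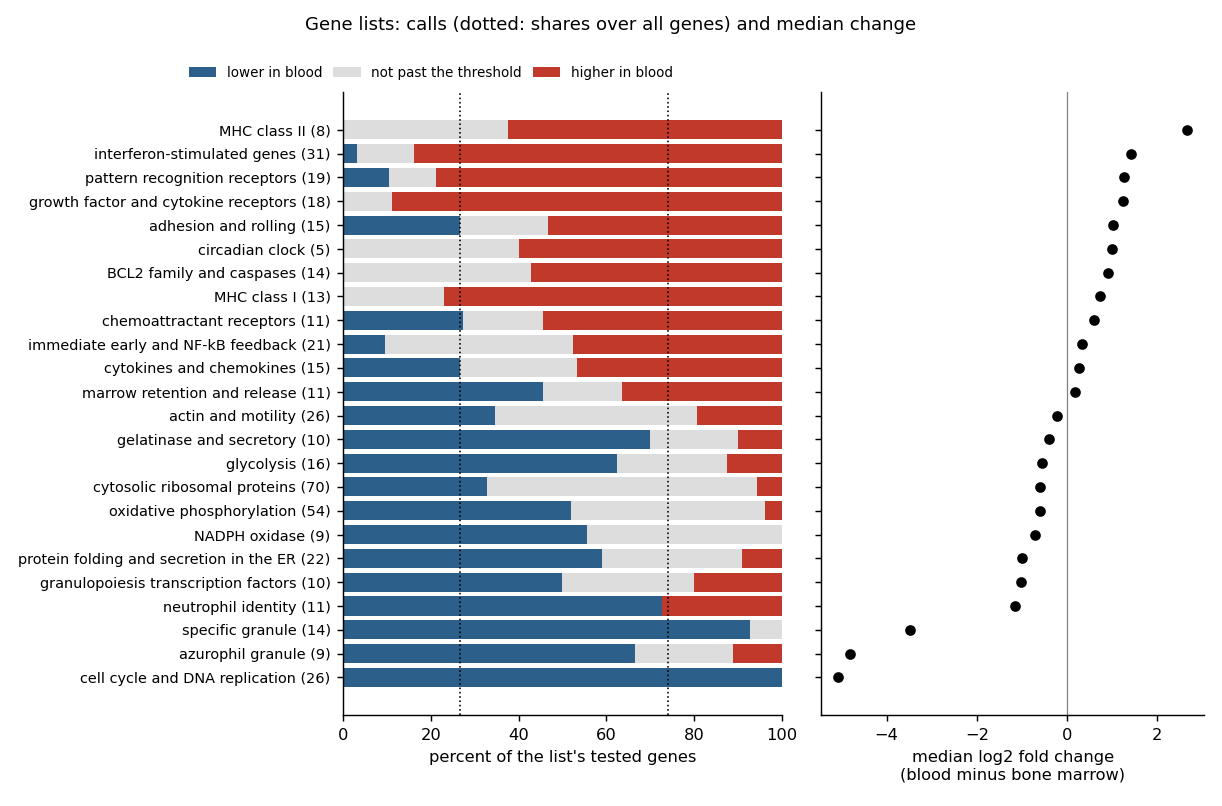
The left panel gives, for each gene list with its number of tested genes, the percent lower in blood (blue), not past the limma threshold (gray) and higher in blood (red); dotted lines mark the shares over all genes, 26.7% lower and 25.9% higher. The right panel gives the median log2 fold change, from -5.07 for the cell cycle to 2.66 for MHC class II.

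Blood libraries carried more platelet RNA. Platelets hold mRNA from megakaryocytes and attach to leukocytes, and they have no marker that the sort removed. The 20 genes of the platelet and megakaryocyte list summed to 2197 to 2751 RPM in blood and 578 to 725 in bone marrow. Of 16 tested, 15 were higher and 1 was lower in blood (median 5.69). Ppbp, the platelet basic protein, had 1009, 1235 and 764 reads in blood and 6, 13 and 5 in marrow (7.45, adjusted p = 0.000182). Thbs1, Rgs18 and Itgb3 were the members with the most reads, in that order. Thbs1 and Itgb3 were higher by 0.66 and 1.72, and Rgs18 was the member that fell (-0.75), with reads in all libraries.

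Platelet genes also led the genes with the largest increases. The 10 genes with the largest log2 fold change among those with at least 20 reads in every blood library included Treml1, Alox12, Gp5, Myl9, G6b, Tubb1, Ppbp, Gzmb and Esam, and 6 of the 10 are on the platelet list. Treml1 had 557 reads in blood and 2 in marrow, a ratio of 371.7 (95% exact counting interval 102.4 to 3077). Tubb1, the beta tubulin of platelets, had 922, 1651 and 1046 reads in blood and 4, 10 and 13 in marrow. Myl9 and G6b, which are not on the list but are known in platelets, had 728, 1021 and 615 and 234, 369 and 223 reads in blood. The contribution of platelet RNA to other genes higher in blood was not tested.

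Red cell RNA was higher in blood too, and differed between the blood libraries. The 24 genes of the red cell and erythroblast list summed to 406.7, 857.2 and 655 RPM in the 3 blood libraries and to 100, 169.9 and 162.8 in the marrow libraries. All 6 tested members were higher (median 3.02). The globin gene Hbb-bs stood at 121, 205 and 157 RPM in blood and 11.8, 22.6 and 18.1 in bone marrow (3.22, SE 0.30, adjusted p = 0.000671), and Hba-a1 and Alas2, the heme synthesis enzyme of red cells, rose by 3.10 and 3.56. Genes of nucleated erythroblasts went the other way: the erythroid factor Klf1 had 0, 0 and 0 reads in blood and 24, 17 and 31 in marrow, and Ermap 0, 0 and 0 and 34, 31 and 35. Neither passed the filter.

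Monocyte and macrophage genes were higher in blood for 6 of 11 tested and lower for 1. Csf1r, the receptor of CSF-1, stood at 1214, 1233 and 1091 RPM in blood and 318, 334 and 272 in bone marrow (1.94, adjusted p = 0.000151), and Cd68 rose by 1.04. The monocyte chemokine receptor Ccr2 was at -0.95 (adjusted p = 0.0679) and Ms4a6c fell by 1.25. Summed over the list of 19, reads were 2049 to 2403 RPM in blood and 1036 to 1334 in bone marrow.

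B cell genes stood at 112 to 188 RPM in blood and 38.9 to 90.2 in bone marrow in sum. The B cell genes Cd79a and Cd79b rose by 1.51 and 1.35, but both were not called without bone marrow library 2 or 3 (adjusted p = 0.0697 to 0.109) and Cd79a not without any blood library either (0.0619 to 0.0953), while Jchain, a plasma cell gene, fell by 5.85. MHC class II genes, which B cells, monocytes and dendritic cells express, were higher for 5 of 8 tested. Cd74, the invariant chain, stood at 402, 239.8 and 212 RPM in blood and 60.9, 30.8 and 38.7 in bone marrow (2.71, adjusted p = 0.00184), and H2-Ab1 and H2-Eb1 rose by 2.68 and 2.70. H2-Ob rose by 5.71 on 119, 143 and 83 reads in blood and was not called without 1 of 4 single libraries (adjusted p = 0.0667 to 0.0822). The summed class II genes and B cell genes were both highest in blood library 1. So were the sums of the monocyte, dendritic cell, and T and NK cell lists. The sort removed cells with B220, a B cell marker, and the part of B cells in the class II result was not tested.

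T and NK cell genes, which the sort should remove, summed to 60.1 to 112 RPM in blood and 10.1 to 21.4 in bone marrow. Gzma, the one tested member, stood at 29.6, 16.6 and 8.53 RPM in blood and 0.149, 0 and 0.602 in bone marrow (6.64, adjusted p = 0.00568). Gzmb, another cytotoxic granule protease, had 26, 35 and 25 reads in blood and none in marrow, at least 38.3-fold higher against a floor of 3 reads over the marrow group. Epithelial and stromal genes of the tumor list summed to 52.6, 218.3 and 53.1 RPM in the blood libraries and to 39.6, 39.9 and 34 in the marrow libraries. The ratio of blood to marrow means was 2.85 with blood library 2 and 1.4 without it.

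Eosinophil, basophil and mast cell genes were lower in blood for 5 of 6 tested. Prg2 and Epx, granule proteins of eosinophils, had no read in blood and 167, 138 and 326 and 141, 78 and 120 reads in marrow, at least 157.6-fold and 84.7-fold lower against a floor of 3 reads over the blood group. Mcpt8, a basophil protease, had 1 read in blood and 320 in marrow. Siglecf, the surface lectin of eosinophils, was higher in blood instead (2.26, 114 to 157 RPM in blood against 23.6 to 34.5 in bone marrow), and it made the summed reads of the list alike in the compartments (131 to 170.5 RPM in blood and 134 to 175 in bone marrow). Dendritic cell genes summed to 134 to 168 RPM in blood and 42.1 to 68.3 in bone marrow, and Itgax gave most of the blood sum but not of the marrow sum. Stem and progenitor genes, none of which passed the filter, summed to 44.6 to 52.8 RPM in blood and 109.8 to 118 in bone marrow.

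**Figure D5:**
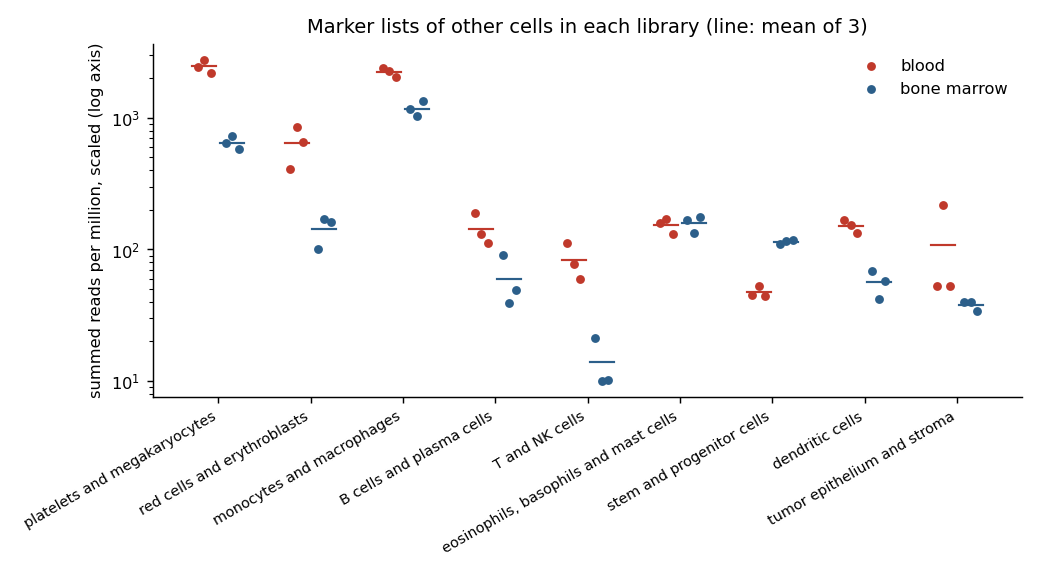
Points are the summed scaled RPM (log axis) of each marker list in the 3 blood (red) and 3 bone marrow (blue) libraries, with a line at each mean. Sums are higher in all blood than in all marrow libraries for every list but those of eosinophils, basophils and mast cells, which overlap, and of stem and progenitor cells, which are lower. Blood library 2 stands out on the tumor epithelium and stroma list.

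The most abundant transcripts changed places between the compartments. In bone marrow the most reads went to Ngp (3.27% ± 0.16, SD, n = 3), Ltf (3.18% ± 0.11), Lyz2 (2.86% ± 0.16) and Actb (2.46% ± 0.20). In blood Ngp took 0.0628% ± 0.0087 and Ltf 0.0497% ± 0.011, and the most reads went to Actb (1.77% ± 0.36), Csf3r (1.07% ± 0.08), Lcp1 (1.00% ± 0.01), H2-D1 (0.81% ± 0.06) and Mmp9 (0.72% ± 0.02). Lcp1, which encodes the actin bundler L-plastin, and Mxd1, a MAX-binding repressor, were both higher by 0.54 and 0.53 on the log2 scale, but the Mxd1 call was lost under quantile normalization (0.23, adjusted p = 0.142) and without blood library 2 or 3 or bone marrow library 1 or 3. Anxa1, which encodes annexin A1, was among the 10 most abundant genes of marrow and fell by 1.17.

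The 10 genes with the largest decreases, with at least 20 reads in every marrow library, were Elane, Mpo, Ctsg, Prss34, Prg2, Epx, Vcam1, Fam64a, Tpx2 and Ms4a3. They comprise azurophil granule genes, basophil and eosinophil granule genes (Prss34, Prg2, Epx), mitotic genes (Fam64a, Tpx2) and the stromal and macrophage gene Vcam1. Prss34 had 2 reads in blood and 1596 in marrow, and Tpx2, a spindle assembly factor, had 1, 3 and 0 in blood and 377, 355 and 477 in marrow.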

How the data were processed

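RNA of sorted neutrophils (TRIzol, then column purification) was made into libraries with the SMARTSeq v2 protocol and sequenced in pairs on an Illumina HiSeq instrument. This kit does not mark strand. Per the labels and the study's methods, the authors aligned reads with STAR 2.5.2b to GRCm38/mm10, counted them per gene (GENCODE annotation) with featureCounts 1.5.0 and computed the deposited log2 FPKM values with edgeR 3.8.6 (versions from the submitters' processing notes). The deposited log2 FPKM values carry a constant of 0.25 reads for a library of mean size, so genes without a read have a value too. Inverting that formula gave whole reads for all 46517 genes within 0.01 read, from which depth, reads and RPM (reads per 1000000 of the scaled library size) were taken. Fold changes of genes with few reads depend on the constant. Against the ratio of scaled summed reads they were larger for Treml1 (513.5 against 371.7) and Esam (162.4 against 89.43). For Mcpt8 the fold change was smaller (220.5 against 239.7). The length used was the whole genomic span for 84.5% of the 46005 genes found in GENCODE M21, so log2 FPKM was not compared between genes. The filter on it excluded 8417 of 14729 genes having 5 or more reads in some library, mostly longer ones (median 26049 against 10530 bases).

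Blood and bone marrow were compared in R 4.3.3 by limma 3.58.1 (a linear model per gene, moderated by eBayes with an intensity trend, two-sided, Benjamini-Hochberg over 6569 genes, adjusted p under 0.05), without a replicate term. The replicates within a compartment are pools of mice from independent experiments. Blood and marrow libraries were treated as independent, although the paper describes the compartments as sampled from the same mice. Gene lists are described by counts and medians with no test. The members and lists were chosen with earlier results of these data known. Named genes were 7 set markers, up to 4 of the most changed and 2 of the most read members of each list, the 10 extremes in each direction (at least 20 reads in every library of the higher group), the 10 most read genes of each compartment and the 3 most read members of each other-cell list. Further genes were named after their values were seen. Motif letters were searched in RefSeq promoter windows (GRCm38.p6). The test was checked on simulated counts with known changes. The simulation gave all genes the same relative spread and changed far fewer genes than were called in the data (52.5%). In that setting it called 2 of 57 genes changed by 1 on the log2 scale and 43 of 65 changed by 2. These shares therefore do not measure the power of the comparison itself. It also called 12 unchanged genes among 6534 tested. Set against the 2 and 43 changed genes called, this was a larger share of false calls than the threshold of 0.05 aims at. Not passing is not evidence of no change. Other filters, pseudocounts, scalings and variance models, limma-voom on the recovered reads, a replicate term, all 9 libraries and leaving out each library were tried. The 3 tumor libraries entered no other comparison. Counting intervals and floors cover counting error only. Single values of some list members are not reported here.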

Additional observations from a re-analysis of the deposited data

How the results depend on the processing

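The counts of 1699 higher and 1751 lower genes stayed within 1.5 times in most alternatives. They moved further with a filter of log2 FPKM over 2 (1081 and 857 of 2990 genes tested), with limma-voom on the recovered reads (2895 and 3591 of 14729) and with a log2 fold change of at least 1 required (917 and 1033), and the lower genes also with all genes of at least 5 reads (3002, beside 2456 higher). Without any filter they were 2186 and 2558 of 21057. Leaving out one library at a time gave 1404 to 1568 higher and 1378 to 1652 lower genes. No called gene took the opposite sign in any alternative except quantile normalization, where 3 of 3450 did, 1 of them past the threshold.

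Of 162 tested named genes, 152 were called, and 138 of these kept their call in every alternative run. The reversed ones were S100a8 (0.19), Actb (0.62) and Actg1 (0.20), and Rn18s-rs5 (0.76), a ribosomal RNA copy that was not called at first (-0.34), each under quantile normalization. Of 24 gene lists of the cells' own biology and identity, 12 had a median above 0. The retention and release list alone turned, with the filter of at least 5 reads, with limma-voom and without blood library 3. The ratio of blood to marrow for the tumor epithelium and stroma list was 2.85, and 1.4 to 3.58 when single libraries were left out, the lowest without blood library 2. Same-numbered blood and marrow libraries did not deviate together (correlations of deviations 0.026, -0.037 and -0.004), so the numbers were taken to pair nothing. A replicate block gave 1513 higher and 1507 lower genes, and its best match was a library's own number for none of the blood libraries. Of the named genes called, Mcl1 (adjusted p = 0.0571) and Mxd1 (adjusted p = 0.0544) were not called with that block. Precision is limited by 3 libraries a group and, for genes with few reads, by depths of 4580807 reads and more.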

Other observations

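Further genes with many reads, chosen after their values were seen, were among the more strongly changed. Fgl2, a secreted prothrombinase-like protein, stood at 4047, 4916 and 4630 RPM in blood and 351, 427 and 276 in bone marrow and rose by 3.71 (SE 0.18, limma adjusted p = 0.000115). Steap4, a metalloreductase, rose by 3.97 (1687 to 1863 RPM in blood against 95.9 to 131 in bone marrow). Socs3, the feedback inhibitor of G-CSF and IL-6 signaling, rose by 3.08, and Cd274, which encodes PD-L1, stood at 157, 111 and 104 RPM in blood and 13.3, 9.54 and 8.58 in bone marrow and rose by 3.56. Tsc22d3 (GILZ) and Per1, which glucocorticoids induce in many cells, rose by 2.05 and 0.99, while Fkbp5, another such gene, was at 0.35 and did not pass (adjusted p = 0.232). Cd101, a surface protein of mature neutrophils, rose by 1.79, and Slc40a1, the iron exporter ferroportin, by 1.57. Among genes lower in blood with many reads, Serpinb1a, an inhibitor of elastase and cathepsin G, stood at 54.2, 70.7 and 62.5 RPM in blood and 1194, 1364 and 1333 in bone marrow and fell by 4.38. Adpgk, an ADP-dependent glucokinase, fell by 3.87, Ceacam1 by 2.09 and the complement gene C3 by 1.94.

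Antibody genes were divided by kind. Ighd, the IgD heavy chain of naive B cells, had 255, 211 and 201 reads in blood and 42, 4 and 13 in marrow (4.48, adjusted p = 0.00562). Igha, the IgA heavy chain, had 29, 9 and 14 in blood and 691, 353 and 417 in marrow (-4.48, adjusted p = 0.00186), and Ighg3 had none in blood and 29, 100 and 34 in marrow, at least 40.7-fold lower against a floor of 3 reads over the blood group. Of 56 tested variable segments, which share reads with one another, 14 were lower (25%) and none was higher. Among all tested genes 26.7% were lower and 25.9% higher, so the share of lower segments was near that of all genes.

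Non-coding genes leaned toward blood. Of 90 tested lincRNA genes (GENCODE M21 biotype), 41 were higher (45.6%) and 14 lower (15.6%), and of 76 antisense genes 25 were higher (32.9%) and 9 lower (11.8%), against 26.6% and 30.9% of 5244 protein-coding genes. Malat1, the abundant nuclear RNA, rose by 1.03 (adjusted p = 0.0211), and Neat1 was at 0.37 and did not pass. As strand was not kept, reads of an antisense gene and of its partner cannot be told apart.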
